A study of Oryza sativa with 10 samples.

Results

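The chromatin of rice seedlings sprayed with indole-3-acetic acid (IAA, the main natural auxin) in the light was compared with that of seedlings kept in the dark. The comparison used 4 of the 10 ATAC-seq peak lists of the series, 2 from the dark (0 h) and 2 from IAA. Peaks of these 4 lists that overlapped by at least 1 bp were merged into 31084 sites, where all 10 lists together give 33382. A site was gained when both IAA lists and neither dark list called it, lost in the converse case, and kept when all 4 lists called it. By this rule 2887 sites (9.29%) were gained, 4166 (13.4%) were lost and 17242 (55.5%) were kept. The other 6789 sites (21.8%) were called in 1 of the lists of a group and belonged to no class. How far the IAA lists resembled the dark was then asked with the lists of 8 h and 24 h of light beside them.

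Seedlings of an indica cultivar were germinated in darkness and sampled in the dark or after 8 h or 24 h in the light. The IAA seedlings stood in the light like those of 24 h and were sprayed shortly before that time point. IAA was dissolved in dimethyl sulfoxide (DMSO), and an ABA group was sprayed in the same way with abscisic acid. A DMSO spray belonged to the experiment and was not analysed here. The IAA seedlings thus differed from the dark ones in light, age, spray and hormone, and these cannot be told apart. Whole seedlings were sampled, so a site open in fewer cells and a site less open in each cell cannot be told apart.

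ATAC-seq uses the Tn5 transposase, which cuts DNA where nucleosomes leave it accessible, so that a peak marks an accessible chromatin region (ACR), often a promoter or enhancer. A seedling grown in darkness elongates and keeps its plastids undeveloped. Light received by phytochromes and cryptochromes starts photomorphogenesis, in which growth slows and chloroplasts form. Auxin promotes cell elongation. It is bound by TIR1/AFB receptors, which leads to the degradation of Aux/IAA repressors and frees ARF transcription factors at auxin-responsive genes. The genes at the sites were not analysed here, and sites are given by position in the MSU7.0 rice genome.

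The dark lists held 24150 and 25302 peaks over a mean of 6.12 Mb, and the IAA lists 23089 and 23778 peaks over 5.94 Mb. The lists of 8 h held 20560 and 19864 peaks, those of 24 h 19746 and 18111, and those of ABA 13278 and 12659. Heights are given in tags, the number of sequenced tags piled over the summit of a peak, which was solved from the deposited fold and p-value. The local background has a lowest level in each list that rises with the depth of the library, and it averaged 3.15 tags in the dark and 4.14 with IAA. At that level a call needed 11 tags in either dark list and 13 in either IAA list. The study describes 2 biological replicates per group. The 2 lists of a group were so alike that they were taken to share most of their tags. Their heights differed by a chi-square of 0.0114 to 0.0872 per site, against 0.571 to 1.04 between groups. Summits fell on the same base at 39 to 81% of the shared sites within a group, against 2.9 to 3.7% between groups. Each group was therefore counted as 1 sample, and no p-value between groups is given. The intervals below are 95% Wilson intervals, which cover counting error only, and absolute depth is unknown.

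Most accessible chromatin was common to dark and IAA. Of the 22742 sites called in both dark lists, 75.8% (75.3 to 76.4%) were kept with IAA and 18.3% (17.8 to 18.8%) were lost. Of the 21178 sites called in both IAA lists, 13.6% (13.2 to 14.1%) were gained. Among the changed sites, those lost made up 59.1% (57.9 to 60.2%). This share fell to 52.0% when each of the 4 lists was cut to its strongest 23089 peaks, so part of it moved with the length of the lists.

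The IAA lists lost fewer dark sites and gained more new ones than the lists of light alone. Against the same dark lists, 8 h of light gained 2111 sites (7.22% of 29240) and lost 5701 (19.5%). After 24 h of light 1432 sites (5.01% of 28598) were gained and 6017 (21.0%) were lost. ABA gained 644 (2.38% of 27096) and lost 10769 (39.7%). The lost share of the changed sites was 59.1% with IAA, 73.0% (72.0 to 74.0%) at 8 h, 80.8% (79.9 to 81.7%) at 24 h and 94.4% (93.9 to 94.8%) with ABA. Of the dark sites, 69.7% were kept at 8 h, 66.9% at 24 h and 50.03% with ABA, each below the 75.8% with IAA. The 4 comparisons share the dark lists, and the groups stand in the same order by the number of peaks called. Only the IAA lists have the peak totals that the study states. A different run of the caller for the other lists therefore cannot be told apart from a difference of IAA.

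**Figure D1:**
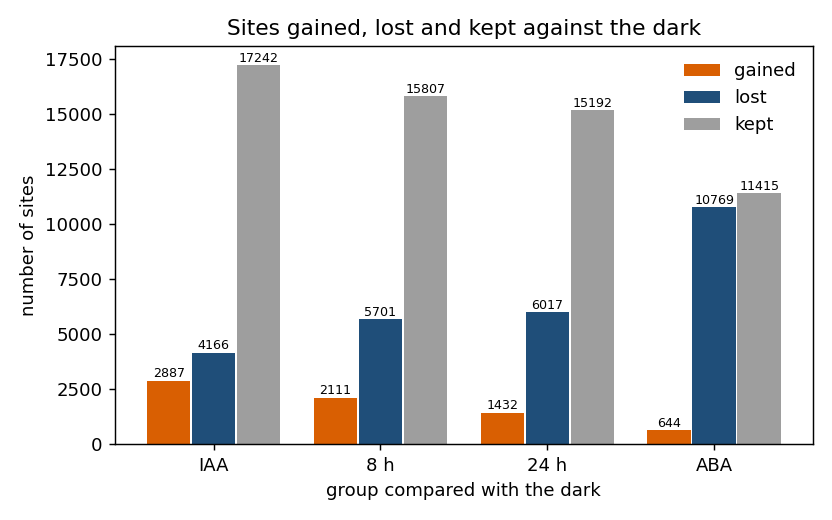
Number of sites gained (orange), lost (blue) and kept (grey) against the dark, for IAA, 8 h, 24 h and ABA, each from a merge of its own 2 lists with the 2 dark lists and with no error bars because each group counts as 1 sample. IAA has the highest gained bar (2887), the lowest lost bar (4166) and the highest kept bar (17242).

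The changed sites were low and narrow. Gained sites had a median height of 20.5 tags and lost sites one of 18.5 tags, while kept sites had 25 tags in the dark and 28.5 with IAA. The median width of the merged sites was 161 bp for gained, 158.5 bp for lost and 296 bp for kept sites. A kept site merges peaks of dark and IAA, while a gained or lost site merges peaks of IAA or dark alone. Part of the difference in width therefore comes with the merging. The peaks at kept sites had a median width of 233 bp in the dark and 238.5 bp with IAA. Only 13 gained sites stood in the top 25% of the IAA lists by strength, and 50 lost sites in the top 25% of the dark lists. Many sites therefore lay close to the limit of a call. Of the lost sites 633 (15.2%) and of the gained sites 389 (13.5%) were within 3 tags of what their own list needed.

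How many sites stood clear of that limit depended on the scaling. The tags needed for a call in the other group were computed at each site from the local background, with a median of 14.5 in IAA for lost sites and 11 in the dark for gained sites. Heights were first scaled by the kept sites, which were 1.12 times as high with IAA as in the dark. Then 1505 lost sites (36.1%) and 1393 gained sites (48.2%) had at least 1.5 times the needed height. Scaled instead by the background level, which was 1.31 times as high with IAA, 2729 lost (65.5%) and 557 gained sites (19.3%) did so. As shares of their class, gained sites were ahead with the first scaling and lost sites with the second.

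The highest gained sites were not particular to IAA. These are the 6 gained sites that ranked highest within the IAA lists, a choice that favours places where IAA stands above the other groups. The first, chr1:26088285-26088857, had 52 and 53 tags in the IAA lists and would have been called with 13 tags in either dark list. It had 24 and 25 tags at 8 h, 45 and 41 at 24 h, and 32 and 32 with ABA. Every light and hormone list called it, and the IAA lists were the highest of all. The second, chr7:13650-13845, had 42 and 44 tags with IAA, 25 and 23 at 8 h, 31 and 30 at 24 h, and 30 and 30 with ABA. The next, chr2:815777-816020, reached 40 and 38 tags with IAA, beside 30 and 34 at 8 h, 36 and 32 at 24 h, and 28 and 27 with ABA. At both places the IAA lists were again above every other list, and 12 and 11 tags would have sufficed in the dark.

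The remaining gained sites of this rank were called in fewer groups. The site chr11:8867199-8867513 had 40 and 39 tags with IAA, 24 and 23 at 24 h, and 26 and 25 with ABA, and no call at 8 h. The site chr3:6373794-6374007 had 38 and 37 tags with IAA, 24 and 25 at 8 h, and 23 and 21 at 24 h, and no call with ABA. The site chr9:14292736-14293165 lay on a high background, where the dark lists needed 25 and 26 tags. It had 66 and 64 tags with IAA, 69 and 63 with ABA, 55 and 49 at 8 h, and 47 and 47 at 24 h. All 6 were called in both 24 h lists as well.

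Over the whole class, gained sites were called in the light less often than the IAA sites as a whole, which include them. Both 8 h lists had a peak at 878 of the 2887 gained sites (30.4%), both 24 h lists at 713 (24.7%) and both ABA lists at 257 (8.90%). Among all 21178 sites with a peak in both IAA lists these shares were 74.7%, 72.1% and 53.2%. At 402 gained sites (13.9%) both light times called a peak, and these had a median of 22 tags with IAA. No 8 h or 24 h list called 1340 of the gained sites (46.4%), and no list outside IAA called 1252 (43.4%), with a median of 19.5 tags. Of all IAA sites, 64.2% were called at both light times, 12.4% in no 8 h or 24 h list and 10.7% in no 8 h, 24 h or ABA list. Gained sites had a median of 20.5 tags with IAA and kept sites 28.5, and these shares were not matched for height.

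Among the gained sites called in no other list, the 3 that ranked highest were well above the limit. The site chr11:17837196-17837505 had 47 and 45 tags with IAA, where the dark lists needed 17 and 18. The site chr6:27895846-27896150 had 33 and 33 tags, where either dark list needed 12. The site chr4:19396522-19396641 had 78 and 83 tags on a background so high that the dark lists needed 36 and 37.

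Lost sites showed the converse. The site that ranked highest in the dark, chr7:7543763-7543938, had 36 and 39 tags there and no call with IAA, where 13 tags were needed in either list. It had 19 and 22 tags at 8 h, 21 and 23 at 24 h, and 25 and 24 with ABA. The site chr12:19192385-19192653 had 36 and 36 tags in the dark, 24 and 24 at 24 h, and 27 and 27 with ABA, with no call at 8 h. The site chr7:5452124-5452314 had 35 and 36 tags in the dark and 25 and 26 at 24 h, with no call at 8 h or with ABA. At all of these the light and ABA lists, where called, were below the dark lists. The sites were picked by their rank in the dark, which favours this order.

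The other lost sites of this rank lay on a higher background. The site chr1:18181134-18181382 had 43 and 46 tags in the dark, 22 and 24 at 8 h, 26 and 26 at 24 h, and 28 and 26 with ABA, and the IAA lists needed 19 and 20. The site chr12:8529619-8529740 had 41 and 45 tags in the dark, 43 and 46 at 8 h, and 58 and 60 at 24 h, where IAA needed 18 and 19. The site chr1:18685947-18686071 had 38 and 38 tags in the dark, 41 and 41 at 8 h, and 46 and 50 at 24 h, where IAA needed 16 and 17. These last 2 sites were higher at 24 h than in the dark and had no call with IAA or ABA. The one on chromosome 12 lay beside a wide region, chr12:8529954-8534377, that every list called. That region had 149 and 158 tags in the dark and 148 and 151 with IAA. All 6 of the highest lost sites were called at 24 h, so at these places the IAA lists had neither the dark nor the 24 h call. The sites chr12:19192385-19192653 and chr7:5452124-5452314 had no call at 8 h either.

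**Figure D2:**
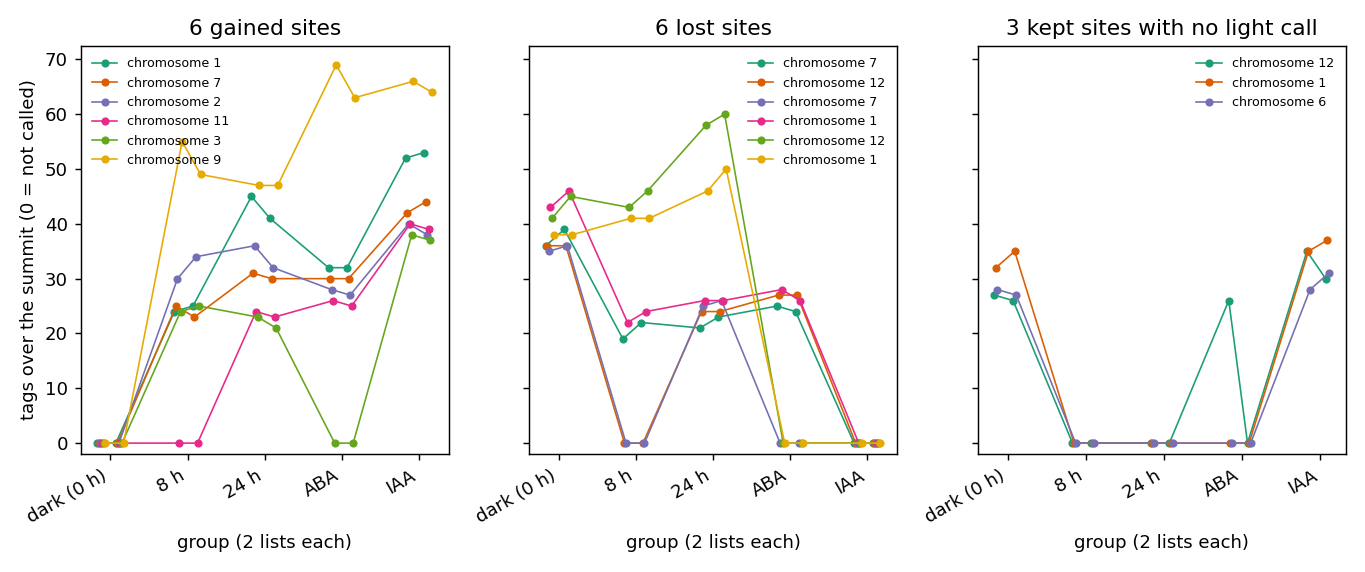
Tags over the summit in each of the 10 lists (2 points per group, 0 where no peak was called) at the 6 highest gained sites, the 6 highest lost sites and the 3 highest kept sites with no call in the light lists, 1 line per site. Gained sites are at 0 in the dark and between 37 and 66 tags with IAA, lost sites are between 35 and 46 tags in the dark and at 0 with IAA, and all 12 of these were called at 24 h.

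Over the whole class, by contrast, most lost sites were missing in the light as well. No list of 24 h called 3139 of the 4166 lost sites (75.3%), and no list of 8 h called 2925 (70.2%). Of all sites called in both dark lists, 26.3% were called in no list of 24 h and 24.9% in no list of 8 h. ABA lists lacked 3750 (90.01%), against 47.0% of the dark sites. At 2468 lost sites (59.2%) no light list had a peak, and at 2319 (55.7%) no list outside the dark had one. Both light times called 319 (7.66%), which thus had a call in dark and light and none with IAA. Of all dark sites, lost ones included, 17.3% were in no 8 h or 24 h list, 15.4% in no 8 h, 24 h or ABA list, and 59.4% were called at both light times. Lost sites had a median of 18.5 tags in the dark and kept sites 25. The shares were not matched for height, so they do not tell a shared loss from a low height.

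The highest of the sites called in the dark alone had about 30 tags. The site chr5:25441940-25442089 had 31 and 31 tags, chr7:16971201-16971351 had 30 and 33, and chr2:32799209-32799377 had 32 and 30. In the IAA lists 14 or 15 tags would have sufficed at these places.

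Few kept sites changed in height by more than 1.5-fold when scaled by the kept sites, and many more were lower with IAA when scaled by the background. At the 16497 kept sites with 1 peak in each list, the log2 ratio of IAA to dark had an SD over sites of 0.31. Between the 2 lists of one group, which were taken to share tags, the SD was 0.12 in the dark and 0.11 with IAA. Scaled by the kept sites, 583 (3.53%) were more than 1.5-fold higher with IAA and 494 (2.99%) more than 1.5-fold lower, and past 2-fold there were 19 in each direction. Scaled by the background level, 101 were higher and 1972 lower. Summits lay a median of 22.5 bp apart, and at 8.90% of the sites they were more than 100 bp apart. At the 11719 sites with 1 peak in each list of dark, 8 h, 24 h and IAA, heights scaled to each other lay nearer between IAA and either light time than between IAA and the dark. The SD of the log2 ratio was 0.31 for dark and IAA, 0.29 for 8 h and IAA, and 0.27 for 24 h and IAA, and 6.67%, 4.43% and 3.11% of the sites were past 1.5-fold. All 3 SDs were below the 0.37 to 0.38 that counting error alone was computed to give, so no change of single sites can be read from them.

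The kept sites with the highest ratio of IAA to dark also had more tags in every light and ABA list than in the dark. Picking by a high ratio favours places with few tags in the dark, so part of this order comes with the choice. The site chr1:33555795-33555980 had 20 and 19 tags in the dark and 57 and 58 with IAA, a scaled ratio of 2.63 (counting interval 1.60 to 4.84). It also had 38 and 39 tags at 8 h, 55 and 54 at 24 h, and 40 and 37 with ABA. Near it lay a wide region, chr1:33545514-33551726, with 150 and 154 tags in the dark and 148 and 157 with IAA. The site chr10:82291-82671 went from 15 and 13 tags to 41 and 38, with 40 and 38 at 24 h. The site chr2:14269595-14269836 went from 17 and 18 to 47 and 46, with 48 and 45 at 24 h. At these 3 sites the mean of 24 h was within 3 tags of that of IAA. The site chr6:30037423-30038266 went from 11 and 12 tags to 29 and 31, with 27 and 29 at 8 h and 21 and 21 at 24 h.

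The kept sites that fell most had fewer tags with IAA than in every other group that called them. They were picked for a low ratio of IAA to dark, a choice that favours low tags with IAA. The site chr9:1144260-1144623 had 43 and 43 tags in the dark and 21 and 19 with IAA, a scaled ratio of 0.41 (0.23 to 0.72), with 25 and 24 at 8 h and 25 and 27 at 24 h. The site chr4:9916199-9916368 fell from 33 and 34 tags to 17 and 16, with 24 and 25 at 8 h and 20 and 20 at 24 h. The sites chr8:11965746-11965923 and chr5:6504661-6504910 were called in no light list. The former went from 28 and 33 tags to 14 and 15, and the latter from 32 and 37 to 17 and 16.

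By shared base pairs, the IAA lists were closest to 24 h of light, and whether the dark or 8 h came next depended on the measure. The Jaccard index, the base pairs called in both lists over those called in either, was averaged over the 4 pairs of lists between 2 groups. It was 0.575 for dark and IAA, 0.573 for 8 h and IAA, and 0.587 for 24 h and IAA. The difference of 0.0021 between the first 2 was within the 0.0027 SD over pairs of lists. It turned to -0.0009 with lists of equal length. The lists of a group were taken to share tags. Each SD over pairs reuses the same lists and does not measure the spread between samples. With the strongest 18111 peaks the indices were 0.572 for dark and 0.574 for 8 h, and with the strongest 12659 they were 0.560 and 0.564. As a share of the peaks of the shorter list, 80.3% overlapped for dark and IAA and 83.6% for 8 h and IAA. The index of dark and IAA minus that of 24 h and IAA was -0.0124, against an SD of 0.0062 over the same kind of pairs. It was -0.0039 without 24 h replicate 1, which is within that SD, and -0.0210 without 24 h replicate 2.

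With full lists, IAA lay slightly closer to the dark than 24 h of light did. Dark and 24 h had an index of 0.557 and dark and 8 h one of 0.556, which leaves IAA ahead of 24 h by 0.0172. The SD over pairs was 0.0049, which again is not the spread between samples, so the size of the lead cannot be judged by it. The lead differed with the peaks compared. At a −log10 q of at least 5 it was 0.0235. With the strongest 18111 peaks of each list it was 0.0050, with the strongest 12659 the indices were 0.560 for IAA and 0.560 for 24 h, and with the strongest 4000 they were 0.510 for IAA and 0.525 for 24 h. As the share of the shorter list that overlapped the dark, it turned too, with 80.3% for IAA and 87.4% for 24 h. The lead of 24 h over dark in its likeness to IAA held in all of these, with 0.547 against 0.510 for the strongest 4000.

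**Figure D3:**
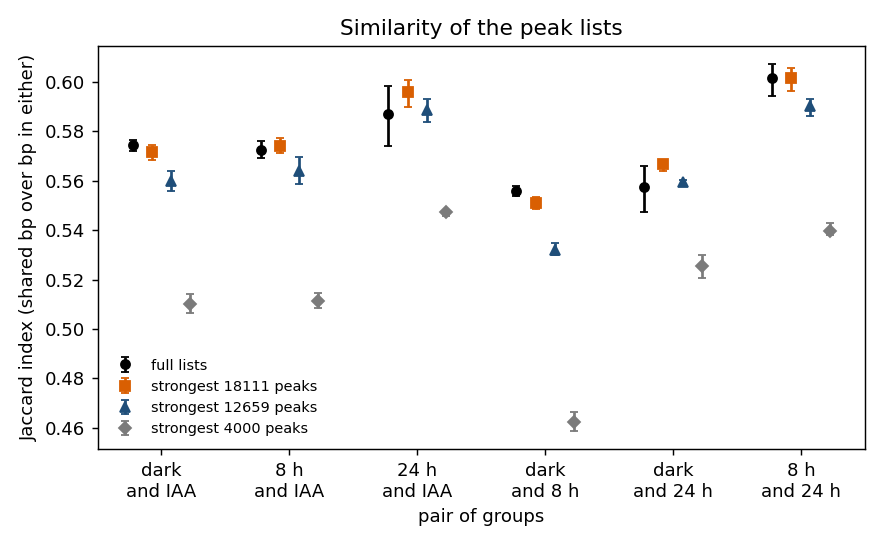
Mean Jaccard index between the lists of 2 groups (points, with bars from the lowest to the highest of the 4 pairs of lists) for full lists and for the strongest 18111, 12659 and 4000 peaks of each list, on an axis that does not start at 0. Dark and IAA stand above dark and 24 h for full lists (0.575 and 0.557) and below them for the strongest 4000 (0.510 and 0.525), while 24 h and IAA stand above dark and IAA in every set.

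Counted site by site, the dark was the odd one out most often. Among the sites where dark, IAA and 24 h each had agreeing lists and 1 group differed, the dark stood apart at 3798 of 8882 (42.8%, 41.7 to 43.8%), 24 h at 2639 (29.7%) and IAA at 2445 (27.5%). The dark alone had the peak at 3114 of its sites and alone lacked it at 684, while 24 h alone had it at 521 and alone lacked it at 2118. The dark lists were the longest and those of 24 h shorter than those of IAA, and the counts were not repeated at equal length. With 8 h in place of 24 h, the dark stood apart at 3752 of 9465 (39.6%), 8 h at 3073 (32.5%) and IAA at 2640 (27.9%). When the IAA lists were left out, the dark stood apart from 8 h and 24 h at 4516 of 9106 (49.6%, 48.6 to 50.6%). Of the sites where IAA, 8 h and 24 h disagreed, IAA stood apart at 3136 of 7641 (41.0%), and at 2629 of these it alone had the peak.

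At the sites that differed between dark and 24 h, IAA kept the dark call at 41.0% (39.8 to 42.2%) of the 6437 sites where its lists agreed. Counted only over sites in the top 50% of the lists that call them, the share was 57.6%, from 63.0% of the sites lost and 28.4% of the sites gained in the light. For sites lost in the light, 2118 were still called with IAA and 3114 were not, which is 40.5% (39.2 to 41.8%) in the dark state. The lists of 8 h were in the dark state at 27.9% (26.8 to 29.2%) of these sites and those of ABA at 11.7%. For sites gained in the light, 521 were uncalled with IAA as in the dark and 684 were called as at 24 h, which is 43.2% (40.5 to 46.1%) in the dark state, below the 52.4% (49.6 to 55.1%) at 8 h. With full lists, IAA thus had more of the peaks of either state than 8 h had. With the strongest 18111 peaks of each list, IAA was in the dark state at 33.0% of the lost and 51.4% of the gained sites, and 8 h at 27.7% and 44.6%. At equal length IAA was above 8 h in both directions, and the order for gained sites turned.

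The higher a site was in the dark, the more often IAA retained it, and the share of 8 h rose as well. Sites were split by the same dark heights that gave their calls. The part of the call limit in this trend was not tested. Among the sites lost at 24 h, IAA was in the dark state at 28.7% (25.8 to 31.8%) of those under 16 tags in the dark, at 42.9% (39.7 to 46.2%) of those from 20 to under 22 tags, and at 70.7% (61.9 to 78.2%) of the 116 with 30 tags or more. The lists of 8 h went from 22.1% (19.5 to 24.9%) to 42.6% (34.2 to 51.5%) over the same range. At 25 tags or more the shares were 64.2% (60.0 to 68.2%) for IAA and 37.5% (33.5 to 41.6%) for 8 h. They were 44.5% (40.2 to 48.9%) and 32.6% (28.8 to 36.7%) when every list was cut to 18111 peaks, so IAA remained ahead and the distance shrank. Among sites gained at 24 h the share fell with height instead. IAA had the dark state at 27 of the 36 under 16 tags and at 29.7% (19.9 to 41.8%) of those with 30 tags or more. The lists of 8 h went from 32 of 37 to 30.2%. At 25 tags or more IAA had 30.8% and 8 h 35.4% with full lists, and 33.3% and 27.7% with lists cut to 18111 peaks.

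**Figure D4:**
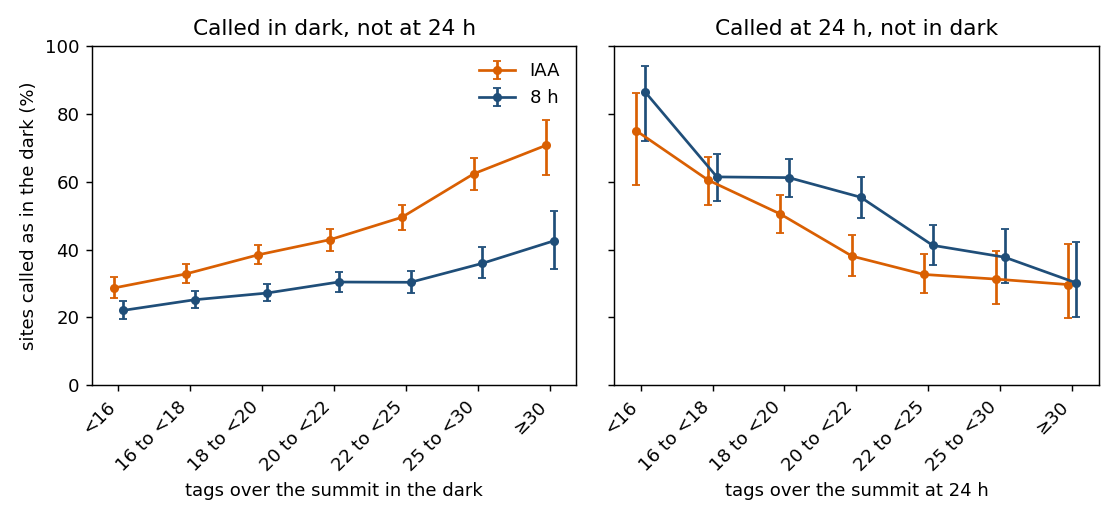
Percent of sites at which the IAA lists (orange) or the 8 h lists (blue) were called as in the dark, by tags over the summit, with 95% Wilson intervals, for sites called in the dark and not at 24 h (left) and called at 24 h and not in the dark (right). On the left IAA rises from 28.7% to 70.7% and 8 h from 22.1% to 42.6%. On the right IAA falls from 27 of 36 sites to 29.7% and 8 h from 32 of 37 sites to 30.2%.

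Some dark sites with no call at either light time were called with IAA. Of the 3929 sites called in the dark and in no 8 h or 24 h list, IAA called 994 (25.3%, 24.0 to 26.7%) in both lists and ABA 368 (9.37%, 8.49 to 10.3%). Of all sites called in both dark lists, 75.8% were called in both IAA lists and 50.03% in both ABA lists. Of the 587 sites called at both light times and in no dark list, IAA called 381 (64.9%, 61.0 to 68.7%) and ABA 143 (24.4%, 21.1 to 28.0%). The IAA lists were longer than those of 8 h, 24 h and ABA, and these counts were not repeated at equal length. The 994 sites had a median of 19.5 tags in the dark and 21.5 with IAA, and the strongest of them were of middle height. The site chr1:22027137-22027387 had 32 and 35 tags in the dark and 35 and 37 with IAA. The site chr6:15625983-15626109 had 28 and 27 tags in the dark and 28 and 31 with IAA. The site chr12:3974854-3975005 had 27 and 26 in the dark and 35 and 30 with IAA, and 26 in 1 ABA list. At these places dark and IAA lists were alike in height and no list of 8 h or 24 h had a call.

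At 146 of the 587 sites called at both light times and in no dark list, no IAA list had a call. The matching share over all sites called at both light times was not computed. The highest, chr3:19245361-19248187, had 96 and 98 tags at 8 h, 99 and 102 at 24 h, and 166 and 164 with ABA. A neighbour at chr3:19244068-19244592 had 85 and 86, 90 and 92, and 162 and 162 tags in the same groups. The site chr11:12266497-12266705 had 40 and 39 tags at 8 h, 45 and 45 at 24 h, and 119 and 116 with ABA. ABA was the highest group at all 3, and IAA the only light-grown group with no call.

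Changed sites lay along all 12 numbered chromosomes, with the highest shares of lost sites on chromosomes 11 and 12. Gained sites made up 10.3% (9.42 to 11.3%) of the sites on chromosome 3 and 79 of 1317 (4.84 to 7.41%) on chromosome 11. Lost sites made up 10.7% (9.77 to 11.7%) on chromosome 3 and 18.9% (16.9 to 21.1%) on chromosome 11. Losses were thus 50.9% (47.5 to 54.2%) of the changed sites on chromosome 3, 69.4% (64.5 to 73.9%) on chromosome 12 and 75.9% (71.0 to 80.2%) on chromosome 11. The kept sites of chromosomes 11 and 12 were also lower with IAA, by a median log2 ratio of -0.08 and -0.10 after scaling, against a range of -0.02 to 0.03 on the other numbered chromosomes. On chromosome 12, 88 of the 98 sites from 20 to 21 Mb were kept. A wide region there, chr12:20497827-20519130, had 167 and 168 tags in the dark and 165 and 167 with IAA. Equal tags score below 0 after scaling, and the part of such sites in the median was not tested. Of 339 windows of 1 Mb with at least 30 sites, 246 had more lost than gained sites, 81 had more gained, 9 had no gained site and 0 had no lost site. The median distance to the nearest other kept site was 4647 bp for gained, 4227.5 bp for lost and 4790 bp for kept sites, and 17.3%, 15.1% and 12.6% of them had one within 1 kb.

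**Figure D5:**
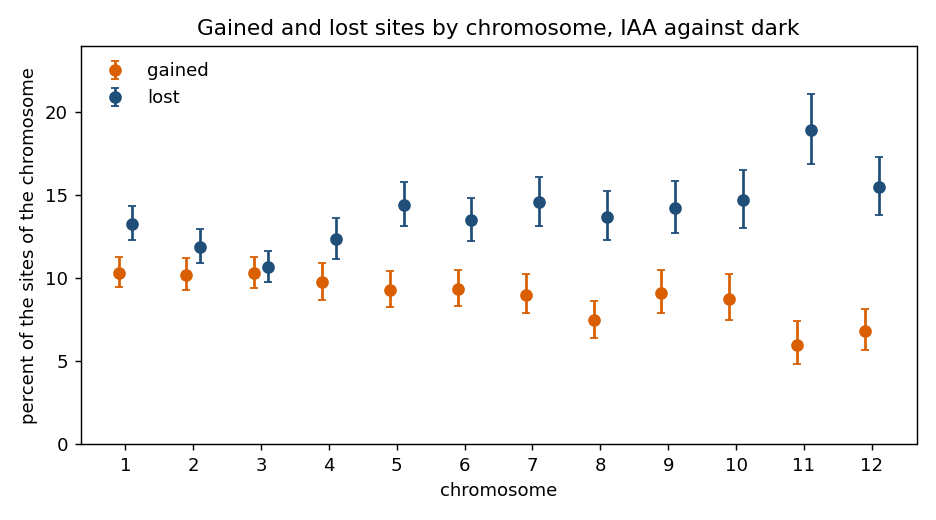
Percent of the merged sites of each chromosome that were gained (orange) or lost (blue) with IAA against the dark, with 95% Wilson intervals. Lost sites range from 10.7% on chromosome 3 to 18.9% on chromosome 11, and gained sites from 79 of 1317 on chromosome 11 to 10.3% on chromosomes 1 and 3.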

How the data were processed

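ATAC-seq of rice seedlings was deposited as 10 MACS2 peak lists, 2 in each of 5 groups. The authors trimmed and aligned the reads with Bowtie2 2.3.2 to MSU7.0, a japonica genome, filtered them with SAMtools 1.9 and called peaks per library. No shift for the Tn5 cut is given in the sources used here. Only the IAA lists have the peak totals that the study states, so the other lists may come from a different run of the caller. The deposited lists hold a score (not used), the summit fold over background as a ratio, and −log10 p-values and q-values.

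MACS2 computes fold and −log10 p from the pileup and the background, so each deposited pair was solved for a whole-number pileup (tags), and the local background, which left at most 0.000203 of the −log10 p unmatched. At summits on the same base, the background over the lowest level of its list was equal within 0.1% in every pair of lists. The tags needed in another list were therefore computed as for a common control track, which the sources used here do not name. The solving and merging code was tested on simulated peaks.

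Sites, classes and the Jaccard index were computed with Python 3.11.15, NumPy 2.4.6, pandas 2.3.3 and SciPy 1.17.1. The strongest peaks were those with the highest −log10 q. Named sites were the 6 gained and 6 lost sites with the highest within-list percentile of −log10 q (the lower of both lists), the 3 highest in each subset described, and the 4 kept sites at either end of the scaled IAA over dark height with at least 40 tags summed over the group means. The comparison, classes and naming rules were chosen with earlier results of these data known. Lists of a group were planned as replicates only if they did not share tags. Alternatives were a −log10 q of at least 5, equal list lengths, common heights, other rules of presence and overlap, and each list left out. Motifs and the place of sites in genes were not analysed here. No column of another sample was found (0).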

Additional observations from a re-analysis of the deposited data

How the results depend on the processing

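The numbers of gained, lost and kept sites stayed within 1.5 times their values at a −log10 q of at least 5, with equal list lengths, at a common relative height under either scaling, with summits within 200 bp, with sites merged from all 10 lists and without any single list. Presence in either list gave 4941 gained sites. Only peaks in the top 50% of their lists gave 266 gained, 484 lost and 8013 kept sites. Sites at 1.5 times the height needed in the other group, a limit chosen after seeing the data, numbered 1393 gained and 1505 lost when scaled by kept sites, and 557 and 2729 when scaled by background. The lost share of changed sites was 57.4% at the stricter q, 52.0% at equal length, 60.6% at a common height scaled by background, 55.5% with presence in either list, 64.5% in the top 50%, and 51.9% and 83.0% at 1.5 times the needed height with the same scalings. Without single lists it ranged from 52.9% to 63.2%, and it stayed above 50% in all 14 alternatives. The share of dark and 24 h differences in the dark state with IAA was 42.5% at the stricter q and 43.0% with presence in either list, and ranged from 37.2% to 46.2% without single lists. It passed 50% in the top 50% of the lists, with 57.6%, made up of 63.0% at lost and 28.4% at gained sites.

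The Jaccard index of dark and IAA minus that of 24 h and IAA was below 0 in all 13 alternatives. It was -0.0244 at equal length and -0.0720 as a share of the shorter list, and ranged from -0.0210 to -0.0039 without single lists, the latter without 24 h replicate 1. Minus that of dark and 24 h, it was 0.0235 at the stricter q, 0.0050 at equal length, 0.0282 as a share of merged sites and -0.0703 as a share of the shorter list, and ranged from 0.0110 without 24 h replicate 2 to 0.0234 without 24 h replicate 1. Minus that of 8 h and IAA, it turned to -0.0009 at equal length and -0.0331 as a share of the shorter list. Kept sites past 1.5-fold numbered 101 higher and 1972 lower when scaled by background, and past 2-fold 19 and 19. The cause of these moves was not tested. With same-numbered lists only, as a replicate block, the 3 Jaccard differences were -0.0114, 0.0182 and 0.0025. The numbers did not pair the lists, since the deviations of same-numbered lists in different groups correlated by -0.0217 to 0.0098 over the sites called in all lists. Motifs and the place of sites in genes, with their alternatives, were not run. Sites under the 11 tags in the dark or 13 with IAA that a call needed at the lowest background could not be seen.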

Other observations

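Some broad accessible regions changed in extent and kept a call, so they count as kept above. The site chr1:25701968-25705265 was called over 1356 and 1342 bp in the dark, 2153 and 2179 bp with IAA, 3256 and 3282 bp at 8 h, and 3210 and 3203 bp at 24 h. Its height was 20 and 22 tags in the dark, 36 and 38 with IAA, and 42 and 44 at 24 h, so IAA lay between dark and light in extent. ABA lay between them too, with 1984 and 1972 bp and 34 and 34 tags. At chr3:9679046-9681295 the called length was 2109 and 2101 bp in the dark, 2131 and 2131 bp at 8 h, 1163 and 1211 bp at 24 h, 1308 and 1172 bp with IAA, and 211 and 200 bp with ABA. At chr3:16300886-16302973 it was 1492 and 1660 bp in the dark, 441 and 338 bp with IAA, and 1380 and 1390 bp at 24 h, and IAA was the only light-grown group besides ABA under 1000 bp. These sites were chosen after their values were seen.

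Changed sites of one direction sometimes followed each other with no other site between them. Runs of 5 or more were found 2 times for gained and 6 times for lost sites. At chr3:13365264-13559725, 5 gained sites in a row had 34.5 to 75 tags with IAA, and 3 of them were called in both lists of 24 h. At chr1:29909637-29912602, 5 lost sites lay within 2.97 kb with 14.5 to 28 tags in the dark, and no list of 24 h called any of them. At chr7:17796093-17846278, 6 lost sites in a row had 15 to 29 tags, and 1 of them was called at 24 h. Of the 19 sites on the sequence named ChrUn, 6 were gained and 0 lost, with a 95% Wilson upper bound of 16.8% for lost sites. Of the 28 sites on ChrSy, 2 were gained and 3 lost.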
